A study of Mus musculus with 6 samples.

Results

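Baseline transcript signal in the kidney cortex of wild-type (WT) mice was described from 3 WT control arrays out of 6 arrays in all. The 3 arrays from control mice lacking the C3a receptor were not analysed here. The WT arrays were chosen by their titles, and every probe that the array files pair with a gene name was used, which gave 36620 named genes. The study set WT mice and mice lacking the C3a receptor side by side, with and without induced diabetes, and the arrays used here come from its non-diabetic WT arm. Male C57BL/6 mice (C57BL/6J in the treatment protocol) entered at 8 weeks of age and ate normal chow with 10% of its calories from fat. After 4 weeks they received vehicle in place of streptozotocin, and they were killed 20 weeks after the point of induction. Total RNA of the renal cortex, 0.2 µg per sample, was copied into Cy3-labelled cRNA and hybridised to one-colour Agilent arrays. Nothing in the labels ties each sample to its own animal, and the spread between the 3 arrays may be in part technical, and cortex from 1 sex and 1 diet limits what the group stands for.

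The nephron is the working unit of the kidney. Blood is filtered in the glomerulus, whose podocytes and fenestrated endothelium form the sieve, and the proximal tubule then recovers most of the filtered glucose, phosphate, amino acids and protein using mitochondrial ATP. The thick ascending limb takes up salt without water, the distal convoluted and connecting tubules adjust sodium and calcium, and the principal and intercalated cells of the collecting duct set water and acid excretion. Cortex holds glomeruli and convoluted tubules, while thin limbs and the inner medullary collecting duct lie deeper.

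The segment identity of the tissue was read from 4 genes, of which the first 30 bases of each 60-base probe are shown because the segment calls rest on them. None of these 4 probes held a 15-base word found in the probes of other genes.
Slc34a1: aaatacatgcttaggtactgagcctgtgtg
Umod: aaacaagttggcatctttcagtgctgttct
Slc12a3: gcaggctagcaccatcttccagtcggagca
Aqp2: attggtttctctgttaccctgggccacctc
On mouse build mm9 they lie at chr13:55515201-55515259, chr7:126606529-126606588, chr8:96875636-96875695 and chr15:99412578-99413554. The last interval is longer than the probe. Exon and UTR annotation on this build was not used here.

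Levels are log2 of the processed signal minus the 75th percentile of the array, so a level of 0 is the 75th percentile of the transcript spots. Slc34a1, the sodium-phosphate cotransporter of the proximal brush border, read 7.54, 7.50 and 7.45 on replicates 1, 2 and 3. Umod, which encodes the uromodulin that the thick ascending limb secretes into urine, read 7.46, 7.38 and 7.50. Both were among the 30 brightest known genes. Slc12a3, the thiazide-sensitive sodium-chloride cotransporter of the distal convoluted tubule, read 2.79, 2.72 and 2.70. Aqp2, the vasopressin-regulated water channel of principal cells, read 1.72, 1.66 and 1.83. All 4 were well above background on every array, with SDs of 0.05, 0.06, 0.05 and 0.09 (n = 3). The second Slc34a1 probe read 6.03, 5.90 and 5.77, so the gene's value depends on the probe.

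That dependence was general. Of 11889 genes with at least 2 probes, the median gap between the brightest and the dimmest probe was 3.42, and 79.0% had a gap over 1. With only probes that were well above background on all 3 arrays, the median gap was 3.11 over 6744 genes. The brightest probe stood for each gene, and its level is given below as a position in the distribution of signal. A brighter probe of one gene than of another does not give the order of their transcripts.

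The 3 arrays were alike in scale. Each carried 59305 transcript spots, of which 57.6%, 56.5% and 57.3% were well above background, and the 75th percentile of the processed signal was 683, 662 and 685. No spot was saturated, 2 to 8 spots per array were non-uniform, and the arrays correlated across 19504 genes at r = 0.994 to 0.997, where genes are not independent replicates. All 3 shared a slide, so their spread holds no difference between slides. The median SD between spots of the same probe was 0.034, 0.039 and 0.048 on replicates 1, 2 and 3 over 300 probes spotted at least 10 times. The median SD between arrays was 0.077 for 295 of these probes and 0.10 for all genes well above background.

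Signal well above background on all 3 arrays was seen for 19504 of 36620 named genes (53.3%), and 14589 genes (39.8%) were not well above background on any array. A further 760 genes passed on 2 arrays and 1767 on 1 array. Among protein-coding genes 14049 of 20361 passed on all 3 (69.0%), against 912 of 3953 long non-coding RNA genes (23.1%). Receptors of the nose were mostly dark, with 56 of 1079 olfactory receptor genes and 11 of 261 vomeronasal receptor genes well above background on all 3. Ribosomal protein genes lay at the other end, with 95 of 98 passing and 80 in the top 5% of signal, a band that holds 1831 genes (5%) by construction and starts at a level of 4.28. All 46 genes of respiratory complex I passed, and 35 of them lay in that band.

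The 30 brightest known genes lay between 7.40 and 8.17, with SDs of 0.010 to 0.107 (n = 3). Respiratory chain genes were Cox6a1 (8.19, 8.20 and 8.13), Uqcr10, Uqcrh and Cox4i1, with Chchd2, a small mitochondrial protein. Cox6a1 encodes a subunit of cytochrome c oxidase and was the brightest of all. Gpx1, the peroxide-reducing glutathione peroxidase, read 8.02, 8.08 and 8.04. Protein handling and translation were represented by Ubb, Ppia, Tpt1, Rpl10 and Rpl41 and by the autophagy gene Gabarapl1. RNA processing was represented by Exosc2 of the RNA exosome, and iron storage by Fth1. Proximal tubule genes were Slc34a1, the fatty acid transport gene Slc27a2, the scaffold gene Pdzk1, the peroxisomal Nudt19, the gluconeogenic Fbp1, the aminoacylase Acy3 and Kap, the androgen-regulated kidney protein. Aldoa and Akr1a1 encode enzymes of sugar metabolism. The others were Fxyd2, a subunit of the sodium pump, Umod, Klk1 (tissue kallikrein), the trypsin inhibitor gene Spink1, the globin genes Hba-a1 and Hba-a2, and Slc10a1. The globin probes share a run of 59 of 60 bases and cannot be told apart.

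**Figure D1:**
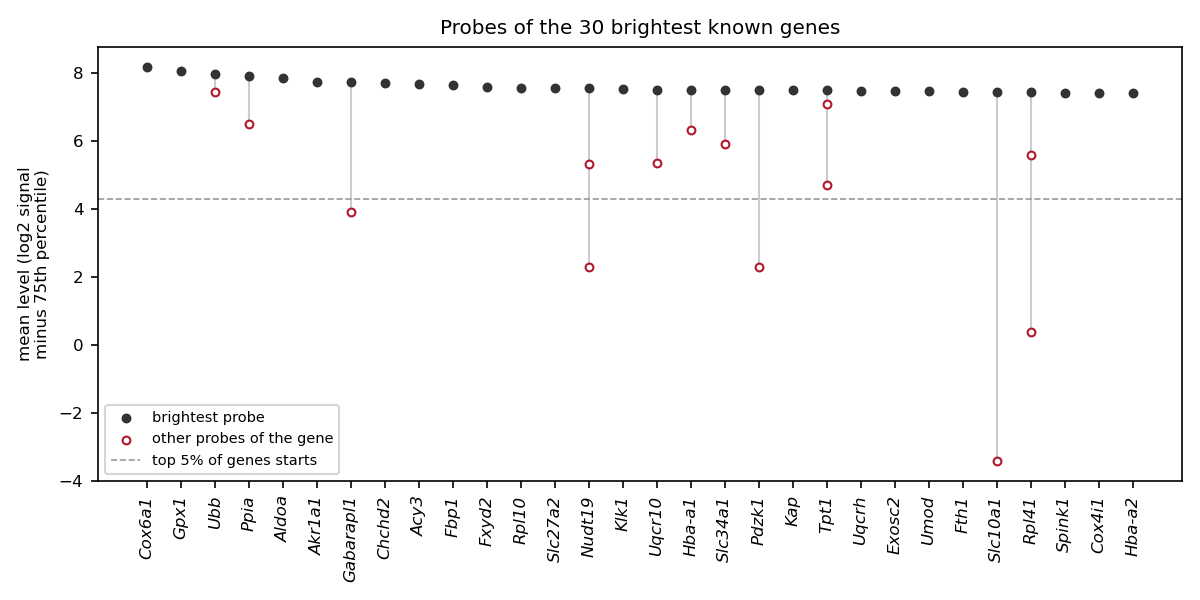
Mean level over 3 WT arrays (log2 signal minus the 75th percentile) of every probe of the 30 brightest known genes. Filled points are the brightest probe of each gene and open points its other probes, and the dashed line is the start of the top 5% at 4.28. Of the 11 genes with a further probe, Slc10a1 has the lowest one, at -3.42.

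Slc10a1, the bile acid transporter of hepatocytes, was the 1 gene of these 30 whose probe held a 15-base word present in the probes of at least 5 other genes. Its level was 7.49, 7.46 and 7.37, and its second probe read -3.42. The same held outside the 30 for Elk1, an ETS transcription factor gene singled out after its values were seen, whose probe shares a word with probes of 16 other genes. A stretch of each probe is shown, with the shared words in capitals.
Slc10a1: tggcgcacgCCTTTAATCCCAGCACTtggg
Elk1: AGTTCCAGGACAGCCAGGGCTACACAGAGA
Such words occurred in 920 of 56224 named probes (1.64%), in 7.68% of the brightest 5% of probes and in 9.95% of the brightest 1%. The median level was -0.35 for probes with a shared word and -4.47 for the others. Whether these probes read other transcripts was not tested.

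The glomerulus was represented by genes of middle to high signal. All 12 podocyte genes were well above background on all 3 arrays and none lay in the top 5%, with a median percentile of 77.2. Clic5 and Cdkn1c had means of 3.24 and 3.26. Nphs1 (nephrin, the main protein of the slit) read -0.44, -0.58 and -0.73, and the transcription factor gene Wt1 read 1.05, 1.01 and 0.82. Their levels were steady, and 11 of 12 were lowest on replicate 3 by small steps, Tcf21 being the exception, where 9001 of all 19504 genes were lowest. In this bulk tissue, fewer cells of a type and less RNA per cell cannot be told apart.

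Among 8 mesangial and juxtaglomerular genes 7 passed on all 3 arrays, and Tbx18 passed on none. Ren1 (renin, the enzyme that starts the angiotensin cascade) read -0.41, -0.03 and -0.98, and Akr1b7, which juxtaglomerular cells also make, read -0.94, -0.45 and -1.11. Both were highest on replicate 2 and lowest on replicate 3. Pdgfrb, the receptor of mesangial cells and pericytes, read 0.18, 0.43 and 1.22 and was highest on replicate 3. Of 6 genes of the glomerular endothelium 5 passed, with Kdr, the main VEGF receptor, at 3.10, 2.96 and 3.02 and Lpl, which many cells make, at 5.89 ± 0.11 (SD, n = 3). Sost passed on none.

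The proximal convoluted tubule gave the brightest nephron list. All 15 genes of segments S1 and S2 were well above background on all 3 arrays, and 11 lay in the top 5%, with 6 of these in the top 1%. Slc22a6, the organic anion transporter OAT1, read 7.07, 7.16 and 6.92, and Miox, which degrades inositol, read 7.18, 7.11 and 7.05. Lrp2 (megalin) and Cubn (cubilin), the receptors that retrieve filtered protein, read 6.86, 6.85 and 6.75 and 5.04, 4.97 and 4.99. The bicarbonate cotransporter gene Slc4a4 and the regulator Hnf4a had means of 6.19 and 6.37. Slc5a2, the glucose transporter SGLT2, read 5.72, 5.65 and 5.53. Outside the top 5% lay the phosphate carrier gene Slc34a3 (4.17 on average), the lactate carrier gene Slc5a12 (4.25), the amino acid carrier gene Slc6a19 (2.16) and Slc2a2, the glucose exit carrier GLUT2 (0.94). No gene of the list spanned more than 1 log2 unit. Within that narrow spread, 13 of 15 were highest on replicate 1 and 10 were lowest on replicate 3. Over all 19504 genes, 6124 were highest on replicate 1 and 9001 lowest on replicate 3.

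The straight segment S3 was less even. All 10 genes passed and 5 lay in the top 5%, led by the aspartic protease gene Napsa (5.97, 6.11 and 5.88) and Atp11a (6.01, 6.05 and 5.79). Slc7a13, a male-biased amino acid carrier gene of S3, read 4.77, 4.92 and 4.79, while the glucose carrier gene Slc5a1 (SGLT1) read -1.06, -1.04 and -0.93. The organic anion carrier genes Slc22a7 and Slc22a13 and the steroid hydroxylase gene Cyp7b1 did span more than 1 log2 unit, as did 2.28% of all 19504 genes. The list was chosen with earlier results of these data known. Slc22a7 read 3.32, 3.68 and 4.59, Slc22a13 2.76, 3.24 and 4.24, and Cyp7b1 1.90, 2.46 and 3.55. Replicate 3 was the highest in all 3 genes and replicate 1 the lowest, and the second Cyp7b1 probe had the same order at -0.65, 0.25 and 1.27. Without replicate 3 none of the 10 had a range over 1, and without replicate 1 only 1 did.

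Along the loop of Henle, all 12 thick ascending limb genes passed. The top 5% held 4 of them, among them Umod, the growth factor gene Egf (6.48, 6.52 and 6.26) and Kcnj1, the apical potassium channel ROMK (5.50 ± 0.04; SD, n = 3). Slc12a1, the furosemide-sensitive cotransporter, read 4.14, 4.26 and 4.40, with its mean of 4.27 just under the edge of the band. The claudin genes Cldn16 and Cldn19, which form the magnesium- and calcium-permeable pore, read -0.87 ± 0.06 and -1.43 ± 0.23, and Cldn10 read 3.84 ± 0.18. No gene of the list spanned more than 1 log2 unit, where 2.28% of all 19504 genes did.

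Genes of the deeper kidney were mostly dim. Of 6 thin limb and inner medulla genes 2 passed on all 3 arrays. The inner medullary urea transporter gene Slc14a2 was not well above background on any array by the brightest of its 4 probes (-5.42, -5.37 and -5.53), and neither were Fst and Sptssb. Bst1 read -3.23, -3.25 and -2.96. Cryab, a small heat shock protein gene used as a marker of the inner medulla, read 2.60, 2.81 and 3.88 and was highest on replicate 3. In the macula densa list Nos1 (-4.62, -4.67 and -4.52) and Pappa2 (-4.50, -3.60 and -4.35) passed, while Ptgs2 did not pass on any array.

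In the distal convoluted tubule 7 of 8 genes passed, none in the top 5%. Beside Slc12a3, the calcium buffer gene Pvalb read 3.22, 3.08 and 3.07, the basolateral potassium channel gene Kcnj10 3.41, 3.38 and 3.43, and the magnesium channel gene Trpm6 -2.69, -2.99 and -2.85. Klhl3, which marks WNK kinases for degradation, was not well above background on any array. All 6 connecting tubule genes passed and 3 lay in the top 5%, namely the calcium-binding protein genes Calb1 (6.10, 5.88 and 5.78) and S100g (6.08, 6.30 and 6.11) and Klk1. The calcium channel gene Trpv5 read -1.47 ± 0.08.

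Principal cell genes passed in 9 of 11 cases, none in the top 5%. Aqp3, the basolateral water channel, read 4.16, 4.20 and 4.08, and the vasopressin receptor gene Avpr2 0.20, 0.27 and 0.18. Scnn1g of the epithelial sodium channel read 1.51, 1.63 and 1.40, whereas Scnn1b passed on 1 array. Aqp4, another basolateral water channel, was the 1 gene of the list with a range over 1, at -2.51, -0.97 and -0.10. Such a range was seen in 2.28% of all 19504 genes. Of the other Aqp4 probes, 1 had the same order (-5.07, -3.92 and -3.01) and 1 did not (-3.63, -3.29 and -3.42). All 12 intercalated cell genes passed. Slc26a4, the bicarbonate exchanger pendrin of type B cells, read 4.56, 4.59 and 4.63 and lay in the top 5%, Slc4a1, the exchanger of type A cells, read 1.70, 1.79 and 1.57, and the regulator gene Foxi1 read 2.59, 2.76 and 2.46. The largest SD of this list was 0.15.

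**Figure D2:**
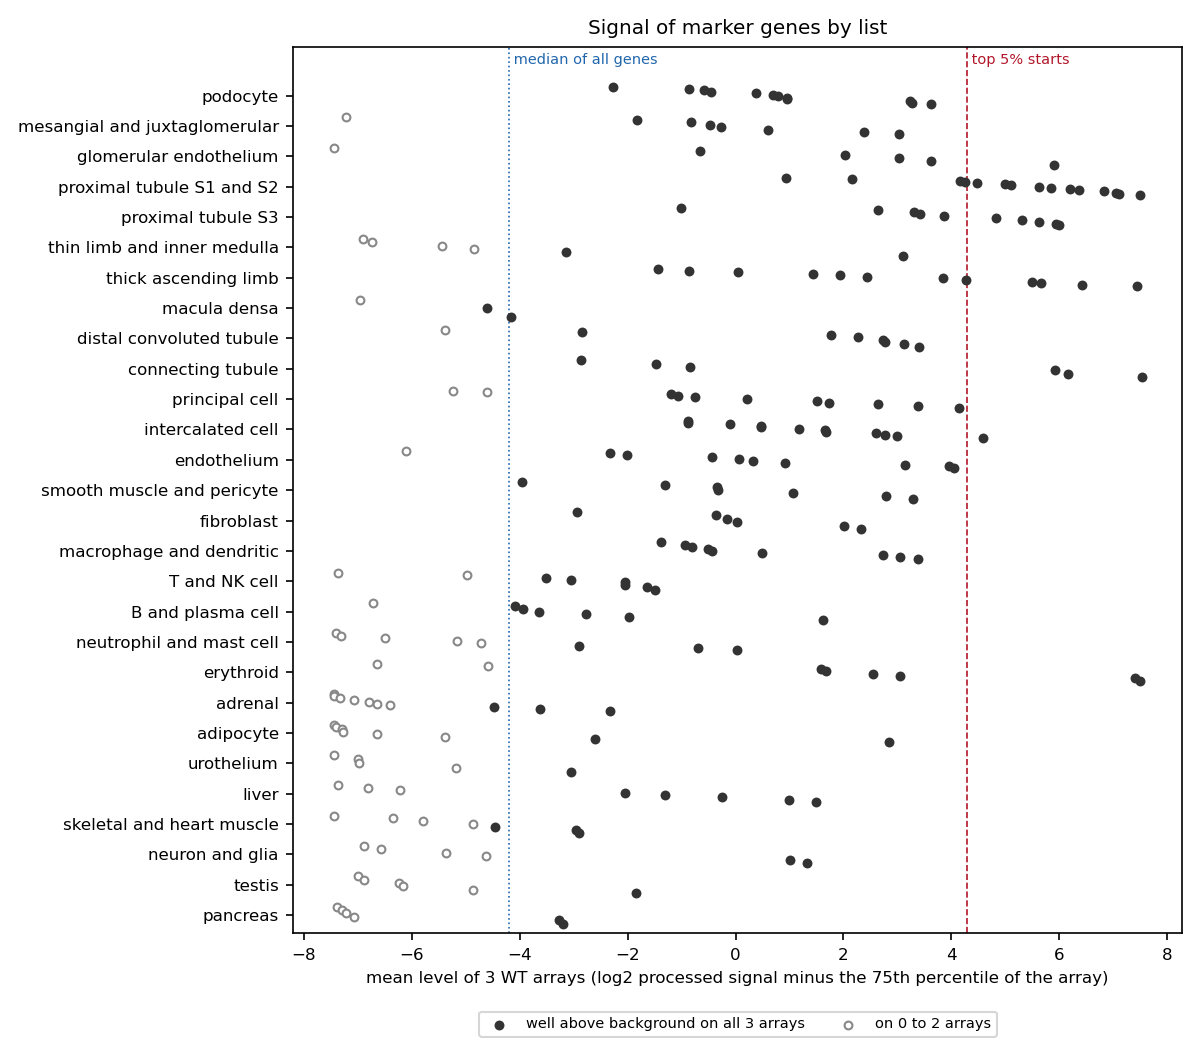
Mean level over 3 WT arrays (log2 processed signal minus the 75th percentile of the array) of every measured member of 28 lists, each list on its own line. Filled points were well above background on all 3 arrays and open points on 0 to 2; the dotted line is the median of all named genes at -4.20 and the dashed line the start of the top 5% at 4.28. Most proximal tubule points lie to the right, and most adrenal, adipocyte, urothelium and pancreas points are open and lie to the left.

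Vessel and stroma genes were of middle signal. Of 10 endothelial genes 9 passed, with Egfl7 at 4.05, 4.03 and 4.06, the VEGF receptor gene Flt1 at 3.96 ± 0.14 (SD, n = 3) and Pecam1 at -2.41, -2.38 and -2.16. Lyve1 of lymphatic endothelium passed on replicate 3 only (-3.49, against -7.43 and -7.39). All 7 smooth muscle and pericyte genes passed, with Acta2 at 2.91, 2.50 and 2.95 and Tagln at 3.18, 2.95 and 3.73, and 6 of 7 were lowest on replicate 2, where 5008 of all 19504 genes were lowest.

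All 6 fibroblast genes passed, and all 6 were highest on replicate 3, where 5413 of all 19504 genes were highest. Lum, a proteoglycan of collagen fibrils, read -3.18, -3.83 and -1.79, and Dcn (decorin) 2.15, 1.87 and 2.94. Col1a1 and Col1a2, the chains of type I collagen, read -0.36, -0.57 and 0.48 and 1.78, 1.75 and 2.52. The median of the list lay 0.63 above the 3-array means on replicate 3, and at -0.24 and -0.39 on replicates 1 and 2. A range over 1 was seen in 4 of the 6, against 2.28% of all 19504 genes, in a list chosen with earlier results of these data known. Without replicate 3 none had such a range, and without replicate 2 there were 2. The summed linear level of the list was 10.2, 9.22 and 17.97 times the 75th percentile.

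The 4 immune lists had median percentiles of 70.5 for macrophage and dendritic genes, 59.3 for T and NK cells, 53.2 for B and plasma cells and 45.4 for neutrophils and mast cells. All 9 macrophage and dendritic genes passed, with Cd74, the invariant chain of class II molecules, at 3.35, 3.38 and 3.43, Csf1r at 3.03, 2.65 and 3.47 and Adgre1 (F4/80) at -0.84, -0.84 and -0.77. T and NK cell genes passed in 6 of 8 cases, Cd4 at -1.49 ± 0.03 and Cd3e at -1.64 ± 0.18, and Ncr1 was dark on every array. Of 7 B and plasma cell genes 6 passed. Ms4a1 (CD20) read -3.26, -3.85 and -4.73 and Cd79b -1.58, -1.70 and -2.62, so replicate 3 was the lowest in each. The second Ms4a1 probe, not well above background on every array, was lowest on replicate 1 (-7.39, -4.09 and -6.89). Jchain, which joins the units of secreted antibodies, was highest on replicate 3 (1.54, 1.34 and 1.98). Of 8 neutrophil and mast cell genes 3 passed, among them S100a8 (-2.72, -2.45 and -3.51) and S100a9 (-0.50, -0.26 and -1.31), while the mast cell protease genes Cpa3, Mcpt4 and Cma1 passed on none.

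Red cell RNA was present. The alpha globin probes were in the top 1%, at 7.50 ± 0.08 and 7.40 ± 0.08 (SD, n = 3). The probes named for the beta globin genes Hbb-b1 and Hbb-b2 read 2.10, 3.08 and 2.46 and 2.60, 3.55 and 2.99. Which beta globin transcripts these probes read was not tested. Hbb-bt, another beta globin gene and one singled out after its values were seen, read 5.26, 6.03 and 5.72. Alas2, the first enzyme of heme synthesis in red cell precursors, read 0.94, 2.11 and 1.69. All 6 erythroid genes that passed were highest on replicate 2, including Slc4a1, which intercalated cells also express. Of all 19504 genes, 7967 were highest on that array.

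Neighbouring and distant tissues were checked with 8 lists. Of 23 measured adrenal, adipocyte and urothelium genes 6 passed on all 3 arrays and 15 on none. The adrenal cortex genes Cyp11b1, Cyp11b2 and Cyp11a1 passed on none, and neither did Adipoq and Plin1 of fat cells or Upk2 and Upk3a of the urothelium. Those that passed were Star, Cyp21a1, Th, Car3, Lep and Upk1a, of which Car3 was the only one above -2 (3.22, 2.73 and 2.60). Of 33 genes of liver, muscle, nerve, testis and pancreas 13 passed and 15 passed on none. The share passing was 53.3% among all named genes and 69.0% among protein-coding genes. The liver list contributed 5 of the 13, with Apoh at 1.57, 1.78 and 1.14 and the fibrinogen chain gene Fgg at 1.12, 0.93 and 0.94. The synaptic gene Snap25 read 1.33 ± 0.20 (SD, n = 3) and the myelin gene Mbp 0.96, 0.89 and 1.18, and none of their other probes was well above background on all 3 arrays. Whether these 13 were made in the cortex was not tested.

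The marker genes went with the labelled male sex. Xist passed on none of the arrays (-7.09, -7.38 and -7.46), and the Y-linked genes Ddx3y, Kdm5d, Eif2s3y and Uty passed on all 3. Of 6 androgen-regulated kidney genes 5 lay in the top 5%, with Kap at 7.50, 7.55 and 7.41, and Odc1, the first enzyme of polyamine synthesis, at 5.66, 4.68 and 5.10.

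Energy metabolism was bright and steady. All 13 measured oxidative phosphorylation genes lay in the top 5%, 7 of them in the top 1%, with a median SD of 0.06. The exception to this steadiness was Cox6c, with 5.70, 5.80 and 4.81. Fatty acid oxidation had 10 of 12 genes in the top 5%, with the mitochondrial Acadm at 6.16, 6.19 and 6.18, and Hadha (1.51) and Slc25a20 (0.40) outside it. All 5 gluconeogenesis genes lay in the top 5%, with Pck1 at 6.33, 6.24 and 6.37 and Fbp1 at 7.71, 7.71 and 7.53. Of 14 glycolysis genes 8 lay there. Among them were the aldolase gene Aldoa (7.84), Pgk1 (7.31) and Ldhb (7.34), and Hk2, the inducible hexokinase, read -4.77, -4.53 and -4.91.

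Injury and stress genes were uneven. Spp1 (osteopontin) and Clu (clusterin) lay in the top 5%, at 5.80 ± 0.10 and 6.25 ± 0.06, while Havcr1 (KIM-1), the marker of proximal tubule injury, passed on 2 of 3 arrays (-4.98, -5.96 and -4.37) and Lcn2 (NGAL) read -2.67, -2.82 and -2.17. All 8 interferon-induced genes passed, none in the top 5% and none with a range over 1, and 7 of 8 were highest on replicate 3, as were 5413 of all 19504 genes. Of 10 cell cycle genes 7 passed, and 6 of those were highest on replicate 1, as were 6124 of all 19504 genes. Among the 6 were Mki67 at -1.61, -2.12 and -2.50 and Top2a at -2.60, -3.29 and -3.70.

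Most genes varied little between the arrays. Over the 19504 genes well above background on all 3, the median SD was 0.10 with an interquartile range of 0.059 to 0.174, and 80.0% had an SD under 0.2. A range over 1, a 2-fold difference between the highest and the lowest array, was seen in 444 genes (2.28%). Of these, 51 had a range over 2 and 6 a range over 4. With normexp background correction 159 genes had a range over 1, and 158 of the 444 probes kept one. Spread was wider at low signal. When the genes were ordered by mean level and cut into 4 equal groups, the dimmest group had a median SD of 0.187 and 274 genes with a range over 1, against 0.071 and 29 in the brightest. The 10 steadiest known genes by SD, with SDs of at most 0.00305, included Mgrn1, Ndufa12, Cttnbp2, Faap24, Slc6a20b, Eid1, Fads2, Syap1 and Pigr. These SDs were less than the median SD between spots of the same probe. Among reference genes Actb read 7.33, 7.30 and 7.25, Hprt 4.57, 4.61 and 4.51 and Tbp -0.44, -0.39 and -0.41.

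**Figure D3:**
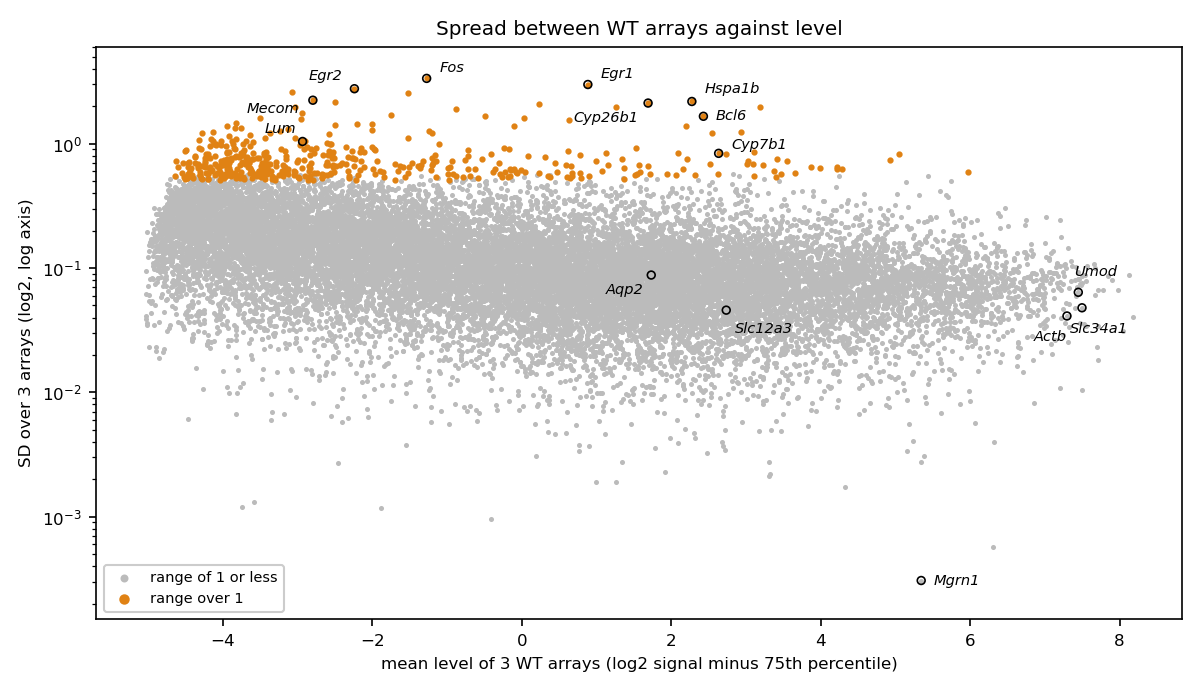
SD over 3 WT arrays (log2 units, log axis) against mean level (log2 signal minus the 75th percentile) for 19504 genes well above background on all 3. The 444 genes with a range over 1 are in orange and named genes are ringed; Fos and Egr2 are among the ringed genes with the highest SDs, at 3.35 and 2.77.

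Replicate 3 was the array that stood apart in most of the 444 genes. It was the odd array, the one farthest from the middle value, in 247 of them (55.6%), where it was high in 187 and low in 60. Replicate 1 was odd in 118 and replicate 2 in 79. Of the 30 known genes with the largest SD, 18 were high on replicate 3 and 4 were low there. Without replicate 3 the count of genes with a range over 1 was 162, and without replicates 1 and 2 it was 248 and 329. Its spot SD of 0.048 and its 8 non-uniform spots were the highest of the 3 arrays, and their part in the result was not tested.

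The 3 known genes with the largest SD, Fos, Egr1 and Egr2, were immediate early genes, a class whose transcription starts within minutes of a stimulus and needs no new protein. All 15 listed genes were well above background on all 3 arrays, and all 15 were highest on replicate 3, as were 5413 of all 19504 genes. A range over 1 was seen in 13 of the 15, against 2.28% of all genes. This list, like the others, was chosen with earlier results of these data known, so its counts are only a description. Fos read -3.42, -2.99 and 2.59, so it was 55.7-fold higher on replicate 3 than on the mean of the other arrays. Egr1, a zinc finger factor, read -0.90, -0.79 and 4.34 (36.4-fold), and Egr2 read -3.73, -3.94 and 0.96 (27.8-fold). On replicates 1 and 2 these genes lay close together, while on replicate 3 they were far above.

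The other members followed with smaller steps. The orphan nuclear receptor gene Nr4a1 read -0.15, 0.41 and 3.52. Jun and Junb, which pair with FOS in the factor AP-1, read 2.23, 2.21 and 4.39 and 1.82, 1.86 and 3.97. The matrix gene Ccn1 (CYR61) read 1.30, 1.47 and 3.80, and Ier2 -0.94, -0.87 and 1.48. Fosb and the stress factor gene Atf3 reached -2.24 and -1.88 on replicate 3. Genes that switch the response off were also highest on replicate 3, with the phosphatase gene Dusp1 at 2.61, 1.97 and 3.61, Zfp36, whose protein marks mRNA for decay, at 0.44, 0.19 and 1.71, and the antiproliferative Btg2 at -0.29, -0.46 and 0.99. The second Btg2 probe gave -0.64, -0.64 and 0.89. Second probes of Ier2 (-6.07, -5.76 and -5.79) and Fosb (-6.51, -7.36 and -7.41), not well above background on every array, were not highest on replicate 3. Ier3 (1.39, 1.34 and 2.26) and Maff (-3.11, -3.45 and -2.96) had a range under 1. The median step from the mean of replicates 1 and 2 to replicate 3 was 2.17, against a median gap of 0.21 between replicates 1 and 2. Without replicate 3 none of the 15 had a range over 1. The summed linear level of the list was 23.9, 22.2 and 116 times the 75th percentile.

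Heat shock genes formed a second group on replicate 3. All 10 passed and 5 lay in the top 5%, and 4 had a range over 1, against 2.28% of all 19504 genes. Earlier results of these data were known when this list was chosen too, so its counts are only a description. Hspa1a and Hspa1b, the paired inducible HSP70 genes, read 1.62, 2.51 and 5.43 and 0.53, 1.57 and 4.73, or 10.3-fold and 12.8-fold higher on replicate 3. Their probes share no run longer than 5 bases, but the transcripts are near copies, so the values may not be independent. The cochaperone gene Dnajb1 read 4.34, 4.83 and 5.97 and Hspb1 (HSP27) 3.09, 3.18 and 4.38. Hsph1 (3.75, 3.83 and 4.03), Bag3 (3.28, 3.39 and 3.59) and the constitutive Hspa8 (5.71, 5.90 and 6.08) had the same highest array with a range under 1. The mitochondrial chaperonin genes Hspd1 (6.56, 6.60 and 6.50) and Hspe1 (5.69, 5.74 and 5.61) were lowest there. Without replicate 3, 1 of the 10 had a range over 1.

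**Figure D4:**
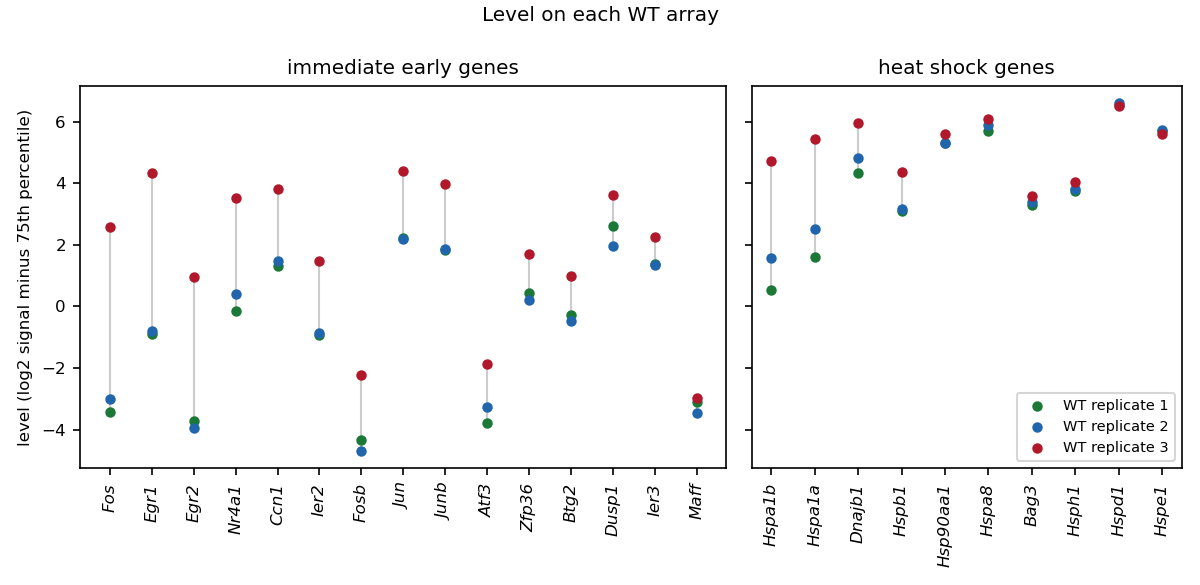
Level (log2 signal minus the 75th percentile) of 15 immediate early genes and 10 heat shock genes on each WT array, one coloured point per array, ordered by the step to replicate 3. Replicate 3 is the highest point for all 15 immediate early genes and for 8 of 10 heat shock genes, the exceptions being Hspd1 and Hspe1. Of all 19504 genes well above background on all 3 arrays, 5413 were highest on replicate 3.

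Members with the largest steps to replicate 3 are shown with the 250 bases before their start sites, from RefSeq on GRCm38.p6, with matches in capitals. The heat shock word GAANNTTC was searched in Hspa1b and Hspa1a, and TGACG, the core of the cyclic AMP response element, on both strands in Fos, where it reads TGACG or CGTCA.
Fos, chr12:85473640-85473889, plus strand: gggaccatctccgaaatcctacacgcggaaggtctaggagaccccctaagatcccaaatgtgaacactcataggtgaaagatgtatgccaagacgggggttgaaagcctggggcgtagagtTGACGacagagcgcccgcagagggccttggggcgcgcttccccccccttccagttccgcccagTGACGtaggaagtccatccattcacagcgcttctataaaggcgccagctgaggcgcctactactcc
Hspa1b, chr17:34959239-34959488, minus strand: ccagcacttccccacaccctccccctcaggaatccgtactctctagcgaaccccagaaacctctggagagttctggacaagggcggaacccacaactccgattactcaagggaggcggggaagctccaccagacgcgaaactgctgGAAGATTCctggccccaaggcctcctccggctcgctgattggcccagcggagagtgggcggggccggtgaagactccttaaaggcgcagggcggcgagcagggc
The Fos window held 2 matches to TGACG, and the Hspa1b window 1 match to GAANNTTC. The Hspa1a window (chr17:34972157-34972406, minus strand) was equal to that of Hspa1b at 247 of 250 bases and held the same match. Of the 13 immediate early genes with a RefSeq promoter, 10 held TGACG, against 17.8% of 32851 promoters of the same length, and so did 4 of 8 heat shock genes. Of 8 heat shock genes with a promoter 5 held GAANNTTC, which reads the same on both strands, against 6.69% of all promoters, and 1 of 13 immediate early genes held it. The 5 were Hspa1a and Hspa1b, whose windows are near copies, Hspb1, and Hspd1 and Hspe1, which were lowest on replicate 3. The windows of Hspd1 and Hspe1 were not compared for overlap, so the heat shock counts may not be of separate promoters. Dnajb1 was not among them. A match is a description of the sequence and does not show a bound factor.

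Other genes outside both lists stood apart on replicate 3. Arc, an immediate early gene of neurons, read -2.82, -2.65 and 0.21, the branched-chain aminotransferase gene Bcat1 -2.75, -0.96 and 1.06 and Akr1c18, which degrades progesterone, -3.66, -4.22 and -0.93. Cck, Chrdl1 and Tnik were also high there. The other Chrdl1 probes, not well above background on every array, read -4.97, -4.76 and -2.27 and -5.07, -5.48 and -3.23. Of the 4 other Tnik probes, also not well above background on every array, 1 was highest on replicate 3 (-5.62, -5.88 and -5.09). Xlr3b, Xlr4b, Ctxn3 and Synpr were low on replicate 3. Xlr3b (-0.25, 1.05 and -2.26) and Xlr4b (0.15, 1.58 and -1.65) were highest on replicate 2.

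Some genes stood apart on the other arrays. Bcl6, a transcriptional repressor gene, was high on replicate 1 (4.33, 1.26 and 1.70). Its second probe was highest there too (-0.22, -4.54 and -1.19), but the array farthest from its middle value was replicate 2, where it was low. The clock gene Cry1 was high on replicate 1 (-2.34, -4.88 and -4.60), but its second probe did not vary (-4.12, -4.19 and -4.06). In the deposited log2 table the range of the gene was 0.12. The brightest probe was chosen anew there and may be the second one, so this value may repeat that probe's result. Dvl3 was low on replicate 1 (-2.17, 1.49 and 1.36). Its second probe, not well above background on every array, was highest there (-4.94, -6.27 and -5.24). Cyp26b1, which degrades retinoic acid, was low on replicate 2 (2.85, -0.76 and 2.98, a 12.8-fold step). Mecom was high on replicate 2 (-4.19, -0.21 and -3.99), whereas its other probe well above background read -4.94, -4.81 and -4.30. Xlr4a, Hoxc11 and Nefl were also high on replicate 2. Xlr4a (-3.37, -0.89 and -4.83) had the same order over the arrays as Xlr3b and Xlr4b.

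Clock genes had a median SD of 0.21 between the arrays, against 0.10 for all genes well above background. Of 16 clock genes 14 passed, and 2 had a range over 1, against 2.28% of all 19504 genes. The 2 were Cry1 and Nr1d1 (REV-ERB alpha), the latter at -3.03, -3.93 and -4.36. Per1 read 1.79, 1.32 and 1.88, Per2 1.42, 1.32 and 1.77, Dbp 1.51, 1.40 and 1.68, and Arntl (BMAL1) 0.84, 0.92 and 0.52. Genes of fasting and glucocorticoid action had a median SD of 0.21 too, with 13 of 14 passing and none with a range over 1. Of these 13, 6 were highest on replicate 1 and 6 on replicate 3, and 10 were lowest on replicate 2. Over all 19504 genes, 6124 and 5413 were highest on replicates 1 and 3, and 5008 were lowest on replicate 2. Among those highest on replicate 3, Sgk1 read 3.44, 3.17 and 3.80, Tsc22d3 (GILZ) 3.02, 2.80 and 3.39 and Txnip 4.83, 4.71 and 5.14, each lowest on replicate 2.

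**Figure D5:**
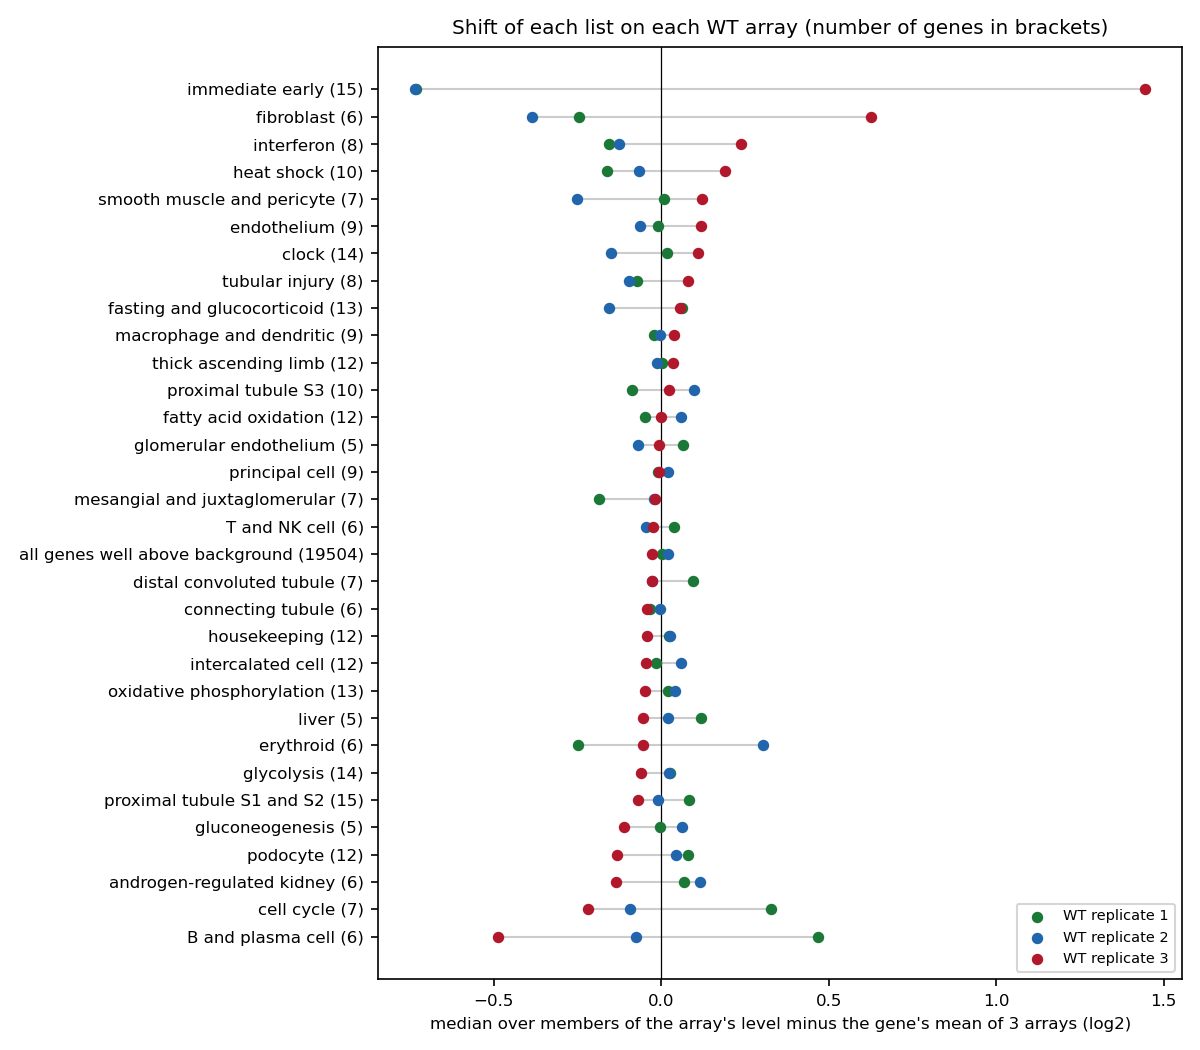
Median over the members of each list of the array's level minus the gene's mean of 3 arrays (log2 units), for lists with at least 5 genes well above background on all 3 arrays, one coloured point per array. Replicate 3 lies 1.45 above the means for immediate early genes and 0.63 above for fibroblast genes, and at -0.49 for B and plasma cell genes; the nephron lists stay near 0.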

How the data were processed

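Signal in renal cortex RNA was read from the scanner files of 3 WT arrays, whose intensity values were made with Agilent Feature Extraction 10.7.1.1, per the file headers and the submitters' processing notes. The background-corrected processed signal of each spot was deposited by the authors. Control spots and outlier spots were left out, log2 signal minus the array's 75th percentile was averaged over the spots of a probe, and the brightest probe stood for a gene. Well above background was the scanner software's own call. The authors also deposited a log2 table whose columns have the same distribution (median 5.39, sorted values equal within 0.000903) and correlate with the log2 processed signal at r = 0.995. How it was normalised was not stated in the labels or headers used, and it served as an alternative.

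Of 56605 probes 56224 were named. Symbols were updated through RefSeq on GRCm38.p6 by accession for 32994, by symbol for 10224 and by synonym for 520 probes, 12867 kept the file's name and 13 were dropped. Probe coordinates are the files' own, on mm9. Named genes were the 4 segment markers, the members of 42 lists, the 30 brightest known genes, and the 30 with the largest and 10 with the smallest SD among known genes well above background on all 3 arrays. Members and lists were chosen with earlier results of these data known. The comparison is descriptive, with 1 group and no test, and the number of arrays limits the precision. Some genes that this rule names are not reported here. A range over 1 log2 unit marked a gene as variable, a rule tested on simulated data with a result that is not reported here. Repeated words were 15-base words shared with the probes of at least 5 other genes. Alternatives changed the scaling, background, outlier spots, probe summary, detection filter, value table and arrays. The tools were R 4.3.3, limma 3.58.1 (normexp with offset 50, quantile), Python 3.11.15, numpy 2.4.6, pandas 2.3.3 and matplotlib 3.10.9.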

Additional observations from a re-analysis of the deposited data

How the results depend on the processing

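The count of genes well above background, 19504, was 36620 with no filter on dim probes, which keeps every gene by construction, and 29420 when probes were counted in place of genes, an alternative chosen after seeing the data. The count with a range over 1, 444, was 159 with normexp background correction, 2054 with genes well above background on at least 1 array, 4835 with no filter and 679 over probes. Leaving out 1 array gave 162 to 329, since 2 arrays cannot span more than 3. For normexp the cause was not tested. The immediate early count of 13 was 0 to 13 when 1 array was left out, 0 being the value without replicate 3. Of the 30 brightest genes 20 were shared when the probes of a gene were averaged and 21 in the deposited log2 table. No paired analysis was possible because 1 group was described and its results come from no test. Dim probes near background limit what can be said of low genes.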

Other observations

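These genes were chosen after their values were seen. The 6 serpin A1 genes, which encode forms of alpha-1 antitrypsin, were lowest on replicate 1 and highest on replicate 3. Serpina1a read 3.59, 4.21 and 4.85 and Serpina1e 3.53, 4.27 and 4.84. The Serpina1a and Serpina1c probes share a run of 47 of 60 bases, so these genes are not separate measurements. The xenobiotic P450 gene Cyp2b10 (-0.83, -0.30 and -2.21) was lowest on replicate 3. Some genes that interferon gamma induces were highest on replicate 2, with Iigp1 at 0.60, 2.10 and 1.33, Tgtp2 at 1.85, 3.21 and 2.49 and the chemokine gene Cxcl9 at -3.12, -1.65 and -2.01. Of the 8 members of the interferon list, 7 were highest on replicate 3. Snai1 read -3.67, -3.69 and -1.76 and Nr4a2 -3.37, -3.49 and -1.86, both highest on replicate 3.

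Large families differed in brightness. Only their protein-coding members were counted. Of all 20361 protein-coding genes, 69.0% were well above background on all 3 arrays and 6.81% lay in the top 5%. Of 27 kallikrein genes 18 passed (66.7%) and 7 lay in the top 5% (25.9%), with Klk1b5 at 6.97, 6.97 and 6.85. Of 96 cytochrome P450 genes 58 passed (60.4%) and 13 lay in the top 5% (13.5%), with Cyp2e1, an ethanol-oxidising enzyme, at 7.24, 7.26 and 7.14. Of 375 solute carrier genes 296 passed (78.9%) and 37 lay in the top 5% (9.87%), with Slc47a1, an exporter of organic cations, at 6.69, 6.61 and 6.55. The long non-coding RNA Norad read 5.34, 5.31 and 5.37, and the olfactory receptor gene Olfr544 read 0.85, 0.73 and 0.78. A gene was well above background on 1 array only in 690, 485 and 592 cases on replicates 1, 2 and 3. Gsdma2 read -7.28, 0.28 and -7.30.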
